A study of Mus musculus with 20 samples.

Results

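Heat shock proteins and J-domain co-chaperones are the protein-folding machinery of the cell, and 67 of their genes were measured in the liver of 20 adult male mice whose mothers had been kept at different temperatures. The genes were picked by a rule on symbols, chosen with earlier results of these data known. It took the HSP90, HSP70, small HSP and HSP110 families, the chaperonin pair Hspd1 and Hspe1, and the J-domain classes A, B and C. The adaptor Stip1 was included as well. The endoplasmic reticulum HSP70 Hspa5 and pseudogenes were left out by that rule. The 67 genes had 1 array row each, out of 22206 transcript clusters that carry 19505 gene symbols. Grouped by symbol only, they comprised 11 HSP70 genes, 1 HSP90 gene, 1 HSP110 gene, 8 small HSPs, 2 chaperonins and Stip1. The J proteins were 3 of class A, 12 of class B and 28 of class C. Hsf1 carried no row and is not analysed here.

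Chaperones of the HSP70 family bind unfolded stretches of a protein and release them on a cycle of ATP hydrolysis. J-domain proteins bring substrates to HSP70 and stimulate its ATPase, nucleotide exchange factors such as Hsph1 reset it, and Stip1 hands clients on to HSP90. Some of these genes are transcribed at all times, whereas others are kept low and are switched on within minutes of heat or other protein damage by the factor HSF1, which binds repeats of the letters GAA and TTC in their promoters. The members were therefore read as a list of 10 inducible genes (Hspa1a, Hspa1b, Hsp90aa1, Hspb1, Hspb8, Hsph1, Dnajb1, Hspd1, Hspe1 and Stip1), a list of 12 constitutive genes (Hspa9, Hspa4, Hspa14, Hspa13, Dnaja2, Dnaja3, Dnajb6, Dnajb11, Dnajb12, Dnajc3, Dnajc5 and Dnajc7) and the other 45. The inducible gene Dnaja1 and the constitutive genes Hspa8 and Hsp90ab1 had no row.

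All mice were chow-fed males of the inbred strain C57BL/6NCr, 4 to 5 months of age, and no transgene or deletion is named in the labels. They formed 4 groups of 5 by the temperature of the dam during gestation, 10, 18, 23 or 30 °C, with 23 °C as the control. Dams had been acclimated for 3 weeks at 30 °C or 2 weeks at 18 and 10 °C, and the sires of these groups were exposed for 3 days. Every litter was moved to 23 °C at birth. No acclimation or sire exposure is given for the 23 °C group. In comparisons with it, these cannot be told apart from the temperature of the dam. The mice are called here by the dam's temperature and by the animal number of the labels. Values are given in the order of those numbers, which are 2, 4, 5, 6 and 8 in the 10 °C group, 1, 3, 4, 5 and 7 in the 18 °C group, 1, 2, 15, 17 and 23 in the 23 °C group and 4, 5, 6, 7 and 8 in the 30 °C group. A level is a log2 value, so that a difference of 1 doubles the signal, and levels of different genes depend on their probes and are not compared.

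Each mouse gave 1 Affymetrix array, and any pair of arrays correlated at 0.987 to 0.993 over all clusters. The hepatocyte markers Alb, Apoa1, Ttr, Serpina1a, Cyp2e1, Cps1, Tat and Hnf4a were all measured, none below 13.16 on any array, and the mean of the 8 deviated by -0.07 to 0.12 from its overall mean on every array. Of the 67 genes, 15 had a mean level under 3.90, which is the 95th percentile of olfactory receptor rows, genes not used by the liver. A further gene lay between that level and 4.75, the highest of the means of negative control rows, and 51 lay above. All 10 inducible and all 12 constitutive genes were above. In whole liver, fewer cells of a type and less RNA per cell cannot be told apart.

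Because HSF1 acts through letters in the promoter, the stretch before the transcription start is shown for 6 of the genes described below. RefSeq promoter windows of GRCm38.p6, 250 bases before to 50 bases after a start, were found for 55 of the 67 members. They were searched for an element of 3 units (GAANNTTCNNGAA or its reverse complement TTCNNGAANNTTC) and of 2 units (GAANNTTC or TTCNNGAA, each its own reverse complement), where every match of 3 units also holds matches of 2. The 250 bases before the start are printed 5′ to 3′ on the gene's strand, with matched letters in capitals. They are Hspa1b at chr17:34959239-34959488 (minus strand), Hspe1 at chr1:55087898-55088147 (plus), Hsph1 at chr5:149636316-149636565 (minus), Hspb1 at chr5:135887669-135887918 (plus), Dnajb6 at chr5:29735648-29735897 (plus) and Dnaja2 at chr8:85555362-85555611 (minus).
Hspa1b: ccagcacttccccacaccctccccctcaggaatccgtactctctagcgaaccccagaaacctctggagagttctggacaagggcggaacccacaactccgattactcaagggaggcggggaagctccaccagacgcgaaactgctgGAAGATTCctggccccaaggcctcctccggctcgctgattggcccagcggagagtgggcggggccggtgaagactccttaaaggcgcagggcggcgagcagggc
Hspe1: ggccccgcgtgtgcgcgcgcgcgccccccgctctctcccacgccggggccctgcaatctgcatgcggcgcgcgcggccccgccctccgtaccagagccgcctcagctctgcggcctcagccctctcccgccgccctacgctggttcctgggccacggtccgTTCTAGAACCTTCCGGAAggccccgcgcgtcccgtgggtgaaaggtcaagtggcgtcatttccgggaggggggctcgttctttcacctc
Hsph1: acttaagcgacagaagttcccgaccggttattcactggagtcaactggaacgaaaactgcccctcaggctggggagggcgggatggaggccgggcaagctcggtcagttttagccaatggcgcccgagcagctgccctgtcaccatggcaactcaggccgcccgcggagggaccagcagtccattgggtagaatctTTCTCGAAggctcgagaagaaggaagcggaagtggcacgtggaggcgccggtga
Hspb1: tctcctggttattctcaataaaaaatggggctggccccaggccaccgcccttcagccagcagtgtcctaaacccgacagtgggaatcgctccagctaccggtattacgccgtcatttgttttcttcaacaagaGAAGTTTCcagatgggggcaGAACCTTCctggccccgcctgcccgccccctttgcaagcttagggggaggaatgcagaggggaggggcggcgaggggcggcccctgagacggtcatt
Dnajb6: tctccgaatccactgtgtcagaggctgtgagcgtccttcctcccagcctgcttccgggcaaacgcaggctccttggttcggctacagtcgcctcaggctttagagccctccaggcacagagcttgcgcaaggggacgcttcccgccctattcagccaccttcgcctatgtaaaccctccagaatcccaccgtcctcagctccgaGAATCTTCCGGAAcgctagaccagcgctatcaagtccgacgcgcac
Dnaja2: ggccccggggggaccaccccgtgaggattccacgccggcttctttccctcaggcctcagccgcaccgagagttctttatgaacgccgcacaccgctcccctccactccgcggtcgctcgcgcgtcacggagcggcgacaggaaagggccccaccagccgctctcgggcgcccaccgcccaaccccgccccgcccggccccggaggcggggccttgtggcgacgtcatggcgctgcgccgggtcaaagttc

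The element of 3 units was present in the windows of 3 of 9 inducible genes with a window, Hspe1, Hspd1 and Hsph1, against 0.662% of all genes with a window. Hspd1 and Hspe1, which encode the mitochondrial HSP60 and HSP10, lie head to head and share the printed match, whose first bases are at -89 and -84 from the start of Hspe1 and at -144 and -139 from that of Hspd1. In Hsph1 the match of 3 units begins at base 16 after the start and is not printed, and a match of 2 units begins at -54. The constitutive list had 1 of 9, Dnajb6 at -46, and the other genes 0 of 37. A match of 2 units was found in 7 of 9 inducible, 1 of 9 constitutive and 7 of 37 other genes, against 16.97% of all genes. Hspa1b and its near-identical copy Hspa1a each carried it at -104, with windows that differ at 4 of 300 bases, and Hspb1 carried it at -117 and -97. The windows of Dnajb1, Stip1 and Dnaja2 held neither element. A match is a stretch of letters and says nothing about binding, and its absence says nothing beyond these windows.

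The 10 °C offspring had the lowest group mean of 9 of the 10 inducible genes, and the exception was Hspd1. None of the 67 genes passed limma at an adjusted p of 0.05 in any of the 6 pairwise comparisons or over the 4 groups, so that every difference below is given as a value. The labels do not say whether mice were littermates, and the p-values measure the spread between these arrays.

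The cytosolic HSP90 gene Hsp90aa1, the inducible form of the chaperone that matures kinases and steroid receptors, had the smallest p of the inducible list. Its level was 13.22, 13.24, 13.34, 13.46 and 12.99 in 10 °C offspring and 14.87, 14.35, 13.77, 13.91 and 13.76 in 23 °C offspring. In 18 °C offspring it was 13.86, 13.82, 13.99, 14.05 and 13.40, and in 30 °C offspring 13.02, 14.44, 13.48, 13.80 and 13.87. All 10 °C arrays lay below all 23 °C arrays, while the 18 °C and 30 °C groups each overlapped both. The means were 13.25 ± 0.17 (SD, n = 5) and 14.13 ± 0.48, a log2 difference of -0.88 ± 0.23 (SE, limma adjusted p = 0.154). Without 23 °C animals 1 and 2 it was -0.56 ± 0.23 (adjusted p = 0.545).

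Hspa1a and Hspa1b encode the major heat-inducible HSP70. Because the copies are near identical, their probe sets may share signal and their values are not independent. Hspa1b had levels of 4.92, 5.69, 5.61, 4.87 and 5.38 in 10 °C offspring and 9.03, 7.31, 5.84, 4.76 and 5.14 in 23 °C offspring. It read 5.81, 5.51, 6.75, 7.75 and 5.42 in the 18 °C group and 5.04, 5.76, 5.86, 5.39 and 5.07 in the 30 °C group. Both the highest and the lowest of the 20 values were in the control group, at 9.03 in animal 1 and 4.76 in animal 17. The lower value is at the level of the negative control rows, so no fold between them is given. Only 4 mice exceeded a level of 6, which were 23 °C animals 1 and 2 and 18 °C animals 4 and 5. The 10 °C minus 23 °C difference was -1.12 ± 0.57 (limma adjusted p = 0.450), and without the 2 high control mice it was 0.05 ± 0.40 (adjusted p = 0.985). Hspa1a was at 5.64, 5.66, 5.64, 5.42 and 5.86 in 10 °C offspring and at 7.83, 6.81, 5.96, 5.38 and 6.16 in 23 °C offspring. The 18 °C group read 6.33, 5.92, 6.11, 7.32 and 5.90 and the 30 °C group 6.04, 6.09, 5.92, 6.12 and 5.53. The high mice were 23 °C animal 1, 18 °C animal 5 and 23 °C animal 2, and the 10 °C and 23 °C groups overlapped. The difference was -0.79 ± 0.32 (adjusted p = 0.342), and -0.19 ± 0.26 without 23 °C animals 1 and 2 (adjusted p = 0.879).

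Hsph1, the nucleotide exchange factor of HSP70 that also takes part in dissolving aggregates, had the largest 10 °C minus 23 °C difference of the 67 members in absolute size. Its level was 9.12, 9.33, 8.98, 8.90 and 8.57 in 10 °C offspring and 11.31, 11.03, 9.23, 9.44 and 9.68 in 23 °C offspring. It was 10.39, 10.32, 11.06, 10.03 and 8.68 in 18 °C offspring and 8.82, 10.79, 9.22, 8.67 and 8.45 in 30 °C offspring. Values above 10 were found in 4 of 5 18 °C mice, in 23 °C animals 1 and 2 and in 30 °C animal 5, and in none of the 10 °C mice. The 10 °C minus 23 °C difference was -1.16 ± 0.45 (limma adjusted p = 0.311), or -0.47 ± 0.44 without 23 °C animals 1 and 2 (adjusted p = 0.809). Between 10 °C and 18 °C offspring it was -1.11 ± 0.45 (adjusted p = 0.537). That difference of means uses no 23 °C array, but its SE and p rest on a spread estimated over all 4 groups.

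Dnajb1, the class B J protein that pairs with HSP70 in refolding and returns HSF1 to its resting state, had levels of 7.29, 7.75, 7.60, 7.40 and 6.93 in 10 °C offspring, 8.26, 8.06, 8.51, 8.23 and 7.69 in 18 °C offspring and 9.04, 8.26, 7.58, 7.90 and 7.97 in 23 °C offspring. In 30 °C offspring it read 7.56, 8.43, 8.28, 7.26 and 7.35. A single 18 °C mouse, animal 7, lay below the highest 10 °C value. The difference of 10 °C offspring was -0.75 ± 0.26 from the 23 °C group (limma adjusted p = 0.252) and -0.76 ± 0.26 from the 18 °C group (adjusted p = 0.490). Without 23 °C animals 1 and 2 the difference from the 23 °C group was -0.42 ± 0.26 (adjusted p = 0.678).

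Stip1, which links HSP70 with HSP90, was at 11.58, 12.00, 11.63, 11.46 and 11.50 in 10 °C offspring and at 13.00, 12.56, 12.10, 12.05 and 11.85 in 23 °C offspring. The 18 °C group read 11.93, 12.31, 12.43, 12.26 and 11.22 and the 30 °C group 11.82, 12.45, 11.86, 11.67 and 11.62. Of the 10 °C mice, only animal 4 reached the range of the control group. The difference was -0.68 ± 0.23 (limma adjusted p = 0.248), and -0.37 ± 0.24 without 23 °C animals 1 and 2 (adjusted p = 0.695).

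Of the small HSPs, which hold unfolding proteins without ATP, Hspb1 read 5.62, 4.58, 4.89, 5.67 and 5.25 in 10 °C offspring and 6.29, 5.98, 5.61, 5.96 and 5.71 in 23 °C offspring. In the 18 °C group it read 5.25, 5.40, 5.96, 5.16 and 5.86 and in the 30 °C group 5.41, 5.92, 5.38, 5.05 and 5.67. Its 10 °C and 23 °C groups touched only through 10 °C animals 2 and 6 and 23 °C animal 15. The difference was -0.71 ± 0.22 (limma adjusted p = 0.210), and -0.56 ± 0.25 (adjusted p = 0.583) without 23 °C animals 1 and 2. It was -0.55 without 10 °C animal 4. The values of 4.58 and 4.89 are at or close to the level of the negative control rows, where RMA understates differences. Hspb8, a partner of the co-chaperone Bag3, ranged from 11.34 to 12.46, with means of 11.63 ± 0.32 in 10 °C and 11.96 ± 0.10 in 23 °C offspring (-0.33 ± 0.19, adjusted p = 0.509).

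The mitochondrial chaperonin genes varied least of the inducible list. Hspe1 had means of 8.83 ± 0.27, 9.20 ± 0.08, 9.17 ± 0.31 and 8.93 ± 0.19 in the 10, 18, 23 and 30 °C groups, and its 10 °C minus 23 °C difference was -0.33 ± 0.16 (limma adjusted p = 0.414). Hspd1 had means of 15.10 ± 0.15, 15.16 ± 0.11, 15.19 ± 0.19 and 14.99 ± 0.19, and its difference was -0.08 ± 0.13 (adjusted p = 0.844). The plot of 6 chaperone genes by dam temperature shows the single mice behind these means.

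**Figure D1:**
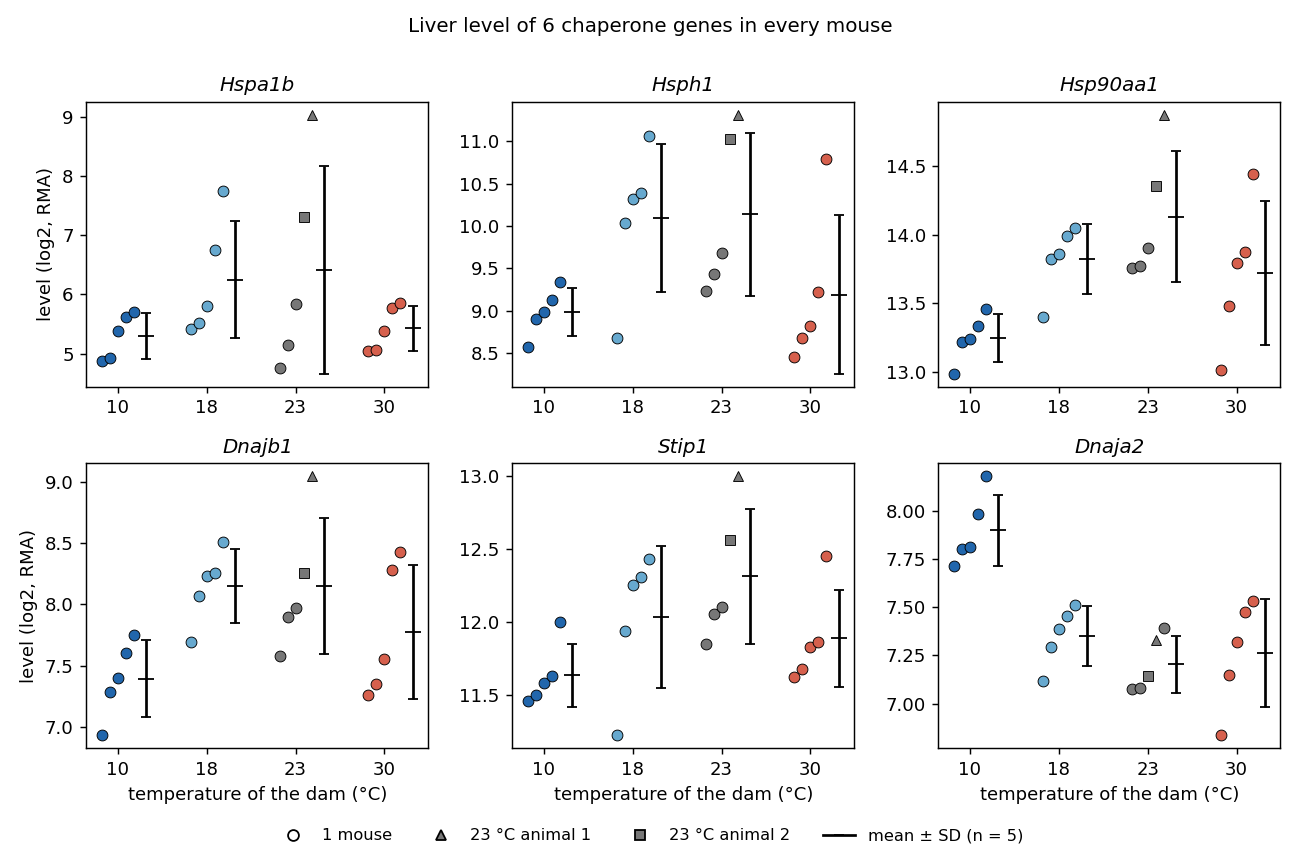
Level (log2, RMA) of Hspa1b, Hsph1, Hsp90aa1, Dnajb1, Stip1 and Dnaja2 in every mouse, by temperature of the dam in °C, with mice ordered by level within a group and the mean ± SD of 5 mice as a bar. The triangle and the square mark 23 °C animals 1 and 2, which hold the highest control values of the first 5 genes, and all 5 Dnaja2 values of 10 °C offspring, from 7.71 to 8.18, lie above the other 15.

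As a list, 10 of 10 inducible genes had a lower mean in 10 °C than in 23 °C offspring, with a median difference of -0.73 against 0.00 over the constitutive genes and 0.00 over all clusters. At an unadjusted p under 0.05, 7 of the 10 were lower and 0 higher, where 5.91% of all clusters were lower and 5.73% higher. Some inducible genes varied together from mouse to mouse, as described below. Their counts, here and in the other comparisons, are therefore not counts of independent genes. By limma's adjusted p, 0 of 67 members and 0.00901% of all clusters were called. Over all 67 members 11 were lower and 2 higher at the unadjusted threshold. The median of the inducible list was -0.49 without 23 °C animal 1, -0.69 without animal 2 and -0.35 without both, when 8 of 10 were still lower and 2 had an unadjusted p under 0.05.

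The control mice differed among themselves. 23 °C animal 1 had the highest of all 20 values in 9 of 10 inducible genes and in 3 of 12 constitutive genes, against 3.82% of all clusters. The tenth, Hspb8, was highest in 30 °C animal 8. The mean deviation of the 10 genes from their own means was 1.17 in 23 °C animal 1 and 0.62 in animal 2, and between -0.08 and -0.06 in the other 3 control mice. It was -0.36 ± 0.12 (SD, n = 5) in 10 °C offspring, ranging from -0.47 to -0.18, so that all 10 °C mice lay below all control mice. In 18 °C offspring it was 0.18 ± 0.28, with animals 4 and 5 at 0.46 and 0.43, and in 30 °C offspring -0.14 ± 0.27, with animal 5 at 0.31. The heat map of deviations shows these mice as dark columns across the upper rows.

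**Figure D2:**
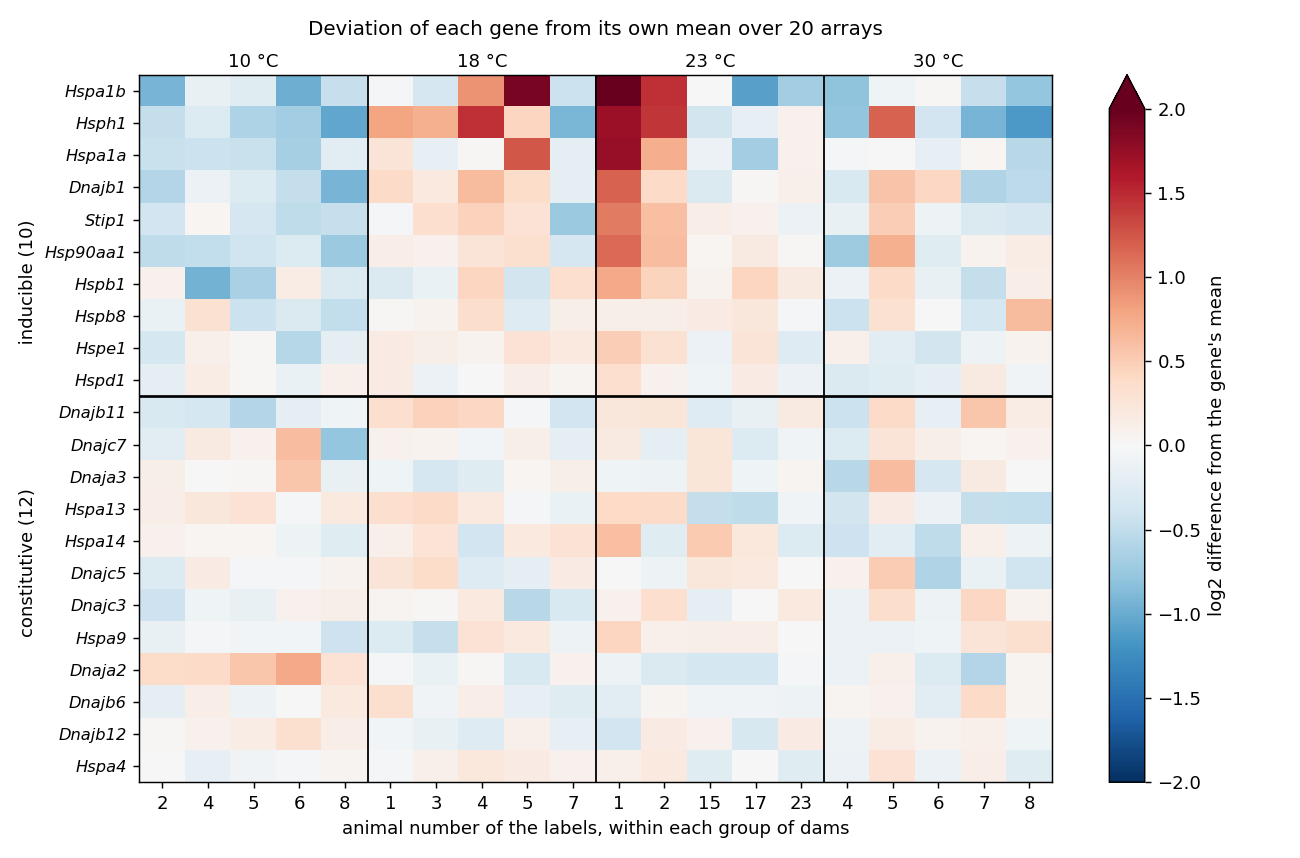
Deviation of each gene (rows, 10 inducible above the line and 12 constitutive below) from its own mean over 20 arrays, in log2 units by colour, for every mouse (columns, by dam temperature and animal number). Hspa1b in 23 °C animal 1 exceeds the colour scale, 23 °C animal 1 is the highest mouse for 9 of the 10 inducible genes, and Dnaja2 is above its mean in all 5 columns of the 10 °C group.

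Some other measured lists also differed in the same mice. The cold-induced RNA-binding genes Cirbp and Rbm3 (2 of 2 measured) averaged -0.71 in 23 °C animal 1, the lowest of all mice, and 0.31 ± 0.28 in 10 °C against -0.16 ± 0.36 in 23 °C offspring. Kupffer cell markers (7 of 8 measured, with a lowest single value of 4.25, below the means of the negative control rows) averaged -0.62 in 23 °C animal 1, and the log2 of their summed level ran from 10.67 to 11.29 in 10 °C, 10.66 to 11.07 in 18 °C, 10.10 to 11.03 in 23 °C and 10.06 to 11.01 in 30 °C offspring. The 9 clock genes of the evening phase averaged 1.64 in 23 °C animal 2 and 1.74 in 18 °C animal 4, and -0.41 in 23 °C animal 1. They averaged 0.04 in 18 °C animal 5 and -0.85 in 30 °C animal 5. Immediate early genes (14 of 14) averaged -0.45 and 0.18 in 23 °C animals 1 and 2. Both values lay within the range of the other mice, from -0.58 in 18 °C animal 1 to 0.73 in 23 °C animal 17. Background control rows averaged 3.71 ± 0.02 in 10 °C and 3.65 ± 0.02 in 23 °C arrays, and the inducible median was -0.61 when that level entered the fit. The part of these differences in the chaperone values was not tested.

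Comparisons with 18 °C and 30 °C offspring put the inducible genes in context. Between 18 °C and 23 °C offspring 0 of 67 members passed limma's adjusted p (0.0% of all clusters), and 1 was higher and 1 lower at the unadjusted threshold, where 4.36% and 4.89% of all clusters were. None of the 67 separated these groups without overlap, which 0.77% of clusters did upward and 1.04% downward. The inducible median was -0.08, and it was 0.08 without 23 °C animal 1. Between 30 °C and 23 °C offspring 0 members passed (0.0% of clusters), 0 were higher and 4 lower at the unadjusted threshold, against 2.21% and 2.63% of clusters, and none separated without overlap, against 0.419% upward and 0.333% downward. There all 10 inducible genes had a lower mean, with a median of -0.42, which was -0.19 without 23 °C animal 1 and -0.09 without both high control mice. The largest differences were those of Hspa1b (-0.99 ± 0.57) and Hsph1 (-0.95 ± 0.45), both at an adjusted p of 0.978 by limma. As a plain difference of means, that of Hspa1b was -0.34 without 23 °C animal 1 and 0.18 without animals 1 and 2, and that of Hsph1 was -0.26 without both. These comparisons and that of 10 °C offspring share the control mice. The comparisons of 10 °C offspring with the other groups likewise share the 10 °C mice and are not independent repeats.

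In the comparison of 10 °C with 18 °C offspring, the differences of means use no control mouse. Its SEs and p-values rest on a spread estimated over all 4 groups, control mice included. Here 10 of 10 inducible genes had a lower mean in 10 °C offspring, with a median difference of -0.49. That median lay between -0.64 and -0.42 when any 1 of the 10 mice was left out. At the unadjusted threshold 5 of the 10 inducible genes were lower, Dnajb1, Hsp90aa1, Hsph1, Hspe1 and Hspa1a, where 3.79% of all clusters were. In all 67 members 8 were lower and 3 higher, and 4.31% of clusters were higher. By limma's adjusted p 0 members passed (0.0% of clusters). Hsp90aa1 differed by -0.58 ± 0.23 (adjusted p = 0.530), Hspe1 by -0.36 ± 0.16 (0.578) and Hspa1a by -0.68 ± 0.32 (0.612). The difference of Hspa1a was -0.42 without 18 °C animal 5.

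Against 30 °C offspring, 9 of 10 inducible genes had a lower mean in 10 °C offspring, with a median of -0.25 that was -0.15 without 30 °C animal 5. Of the 67 members 0 passed limma's adjusted p (0.0% of clusters), and 3 were higher and 3 lower at the unadjusted threshold, where 3.63% and 3.13% of all clusters were. The only inducible gene among them was Hsp90aa1, at -0.47 ± 0.23 (adjusted p = 0.734), or -0.29 without 30 °C animal 5. From 18 °C to 30 °C, the 18 °C group had the higher mean in 10 of 10 inducible genes, by a median of 0.22, which was 0.14 without 18 °C animal 5. In that comparison 0 members passed (0.0% of clusters), 4 were higher and 2 lower at the unadjusted threshold, where 4.21% and 4.0% of clusters were, and none of the 6 was inducible.

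**Figure D3:**
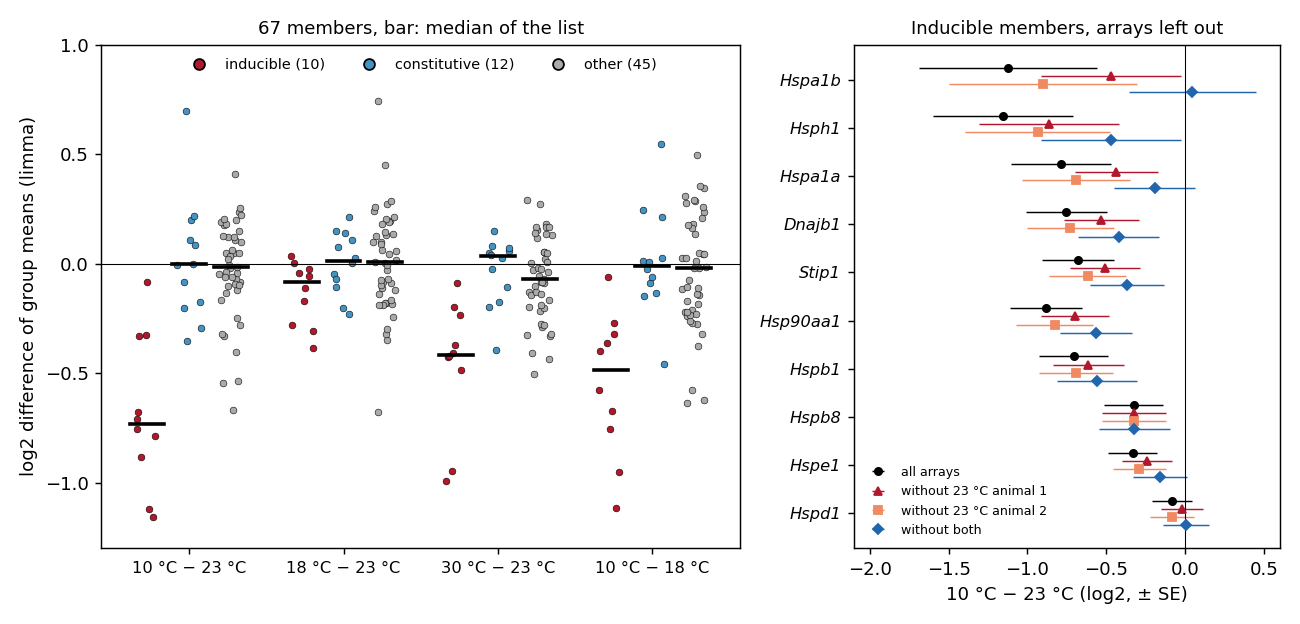
Left, log2 differences of group means (limma) of the 67 members in 4 comparisons, coloured by list, with the median of each list as a bar: the inducible median is -0.73, -0.08, -0.42 and -0.49 from left to right. Right, the 10 °C minus 23 °C difference ± SE of the 10 inducible genes with all arrays and without 23 °C animal 1, animal 2 or both, where that of Hspa1b goes from -1.12 to 0.05.

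Among the constitutive genes, only Dnaja2 had an unadjusted p under 0.05 in limma between 10 °C and 23 °C offspring. This class A J protein serves the constitutive HSP70 in refolding. It read 7.80, 7.81, 7.98, 8.18 and 7.71 in 10 °C offspring and 7.33, 7.14, 7.08, 7.08 and 7.39 in 23 °C offspring. The 18 °C group read 7.38, 7.29, 7.45, 7.12 and 7.51 and the 30 °C group 7.32, 7.53, 7.15, 6.84 and 7.48. Every 10 °C mouse lay above every one of the 15 others, which 6 of 22206 clusters did (0.027%), and no other member was among them. The 10 °C mean of 7.90 ± 0.18 was higher by 0.70 ± 0.14 than the 23 °C mean of 7.20 ± 0.15 (limma adjusted p = 0.129), by 0.55 ± 0.14 than that of the 18 °C group (0.388) and by 0.64 ± 0.14 than that of the 30 °C group (0.662). It had the smallest p of the 67 members over the 4 groups (F-test adjusted p = 0.247). The difference did not rest on the high control mice, at 0.72 ± 0.17 without both (adjusted p = 0.346), and was 0.59 ± 0.17 (0.813) with the level of background control rows in the fit.

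The constitutive genes were split evenly, 6 of 12 higher and 6 lower between 10 °C and 23 °C offspring. At the unadjusted threshold 2 of 12 differed between 10 °C and 18 °C offspring, where 8.10% of all clusters did. Between 10 °C and 30 °C offspring 3 of 12 differed, where 6.76% of all clusters did. Mitochondrial HSP70, Hspa9, was at 12.95, 13.08, 13.05, 13.05 and 12.68 in 10 °C offspring and at 13.53, 13.20, 13.22, 13.24 and 13.09 in 23 °C offspring. These groups did not overlap, and the difference was -0.29 ± 0.15 (limma adjusted p = 0.462). Together with Hsp90aa1 and Dnajc25, Hspa9 made up the 3 members whose 10 °C values all lay below the 23 °C values, where 1.4% of clusters did, and Dnaja2 was the 1 above, where 1.05% did. Hspa4, a nucleotide exchange factor of HSP70, had group means of 12.85 to 13.00. Dnajb11, a co-factor of the HSP70 of the endoplasmic reticulum, had means of 8.93 ± 0.19 in 10 °C and 9.28 ± 0.23 in 23 °C offspring (-0.35 ± 0.19, adjusted p = 0.480). Hspa13, another HSP70 of that compartment, was at 10.79 ± 0.12 in 10 °C and 10.57 ± 0.44 in 23 °C offspring (0.22 ± 0.18, adjusted p = 0.681). The other 7, Hspa14, which acts at the ribosome, Dnaja3 of the mitochondria, Dnajb12 and Dnajc3 of the endoplasmic reticulum, Dnajb6, which keeps proteins from aggregating, Dnajc5 of secretory vesicles and Dnajc7, a J protein with TPR repeats, differed by -0.20 to 0.20.

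Of the J proteins outside both lists, Dnajb2, which also binds ubiquitin, read 8.84, 8.88, 9.18, 9.51 and 8.77 in 10 °C offspring and 9.55, 9.76, 9.96, 9.76 and 9.48 in 23 °C offspring. The 18 °C values were 9.59, 9.32, 9.33, 9.62 and 8.93, and the 30 °C values 8.81, 9.27, 9.17, 9.73 and 9.36. Only 10 °C animal 6 reached the control range. The differences from the 23 °C group were -0.67 ± 0.18 at 10 °C (limma adjusted p = 0.165), -0.35 ± 0.18 at 18 °C (0.567) and -0.43 ± 0.18 at 30 °C (0.978). The 10 °C value was -0.70 ± 0.21 without 23 °C animals 1 and 2.

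Dnajc17, a nuclear J protein tied to splicing, had the smallest p of the members between 18 °C and 23 °C offspring. Its levels were 4.52, 5.13, 4.60, 4.11 and 4.60 in the 18 °C group and 5.52, 5.24, 5.47, 4.78 and 5.34 in the 23 °C group, and it read 5.14, 5.00, 5.28, 4.57 and 4.70 in the 10 °C and 4.43, 4.97, 4.73, 4.88 and 4.81 in the 30 °C group. The control group lay highest, with an overlap in each comparison. Differences from it were -0.68 ± 0.18 for 18 °C (limma adjusted p = 0.299), -0.51 ± 0.18 for 30 °C (0.978) and -0.33 ± 0.18 for 10 °C offspring (0.497). Some of these levels are close to those of the negative control rows, which averaged 4.40 to 4.75 per array, where RMA understates differences.

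Dnajb9, a J protein of the endoplasmic reticulum and a target of the unfolded protein response, had the widest spread outside the inducible list. It ranged from 12.68 to 14.67 in 23 °C offspring, from 13.61 to 14.97 in 18 °C, from 13.02 to 14.01 in 10 °C and from 12.15 to 14.22 in 30 °C offspring. Control animals 1 and 2 were again above the other 3, at 14.07 and 14.67 against 12.68 to 12.88. The 18 °C group differed by 0.74 ± 0.38 from the 23 °C group (limma adjusted p = 0.568) and by 1.07 ± 0.38 from the 30 °C group (0.472), and the first of these was 1.38 without 23 °C animals 1 and 2. Hspa4l, an exchange factor related to Hspa4, was at 9.07 and 8.87 in 23 °C animals 1 and 2 and at 7.32 to 8.06 in the other 3. Its 10 °C minus 23 °C difference of -0.55 ± 0.26 (adjusted p = 0.422) was -0.05 ± 0.23 without both.

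Dnajc27, which joins a J domain to a Rab-like GTPase, was near background, with 18 °C levels of 3.68 to 4.21 and 30 °C levels of 2.93 to 3.57. Its difference was 0.45 ± 0.17 between the 18 °C and 23 °C groups (limma adjusted p = 0.443) and 0.60 ± 0.17 between the 18 °C and 30 °C groups (0.365). Dnajc10, a disulfide reductase of the endoplasmic reticulum, was the only member besides Dnaja2 that was higher in 10 °C than in 23 °C offspring at the unadjusted threshold. Its means were 9.87 ± 0.34 and 9.47 ± 0.18 (0.41 ± 0.17, adjusted p = 0.367). Over the 4 groups 9 of 67 members had an unadjusted p under 0.05 in limma's F-test, 5 of them inducible, where 9.86% of clusters did, and 0 passed after adjustment (0.0% of clusters).

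Members known mainly from testis, muscle or brain, such as the testis forms Hspa1l and Hspb9, made up 14 of the 67. Their mean stayed within -0.13 and 0.11 of its overall mean on every array. Most of them, 11 to 12 of 14 per group, lay under the olfactory level of 3.90.

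The spread between mice of one group was described for each member. The SD within groups was 1.04 for Hspa1b and 0.81 for Hsph1, higher than in 99.6% and 99.2% of all clusters. The inducible list had a median SD of 0.39, at the 81.9th percentile of all clusters, the constitutive list one of 0.26, at the 35.7th, and all clusters one of 0.29. Without 23 °C animals 1 and 2 the SD of Hspa1b was 0.64 and that of Hsph1 0.71, still above 98.2% and 98.8% of clusters. At the other end Hspd1 had an SD of 0.16.

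**Figure D4:**
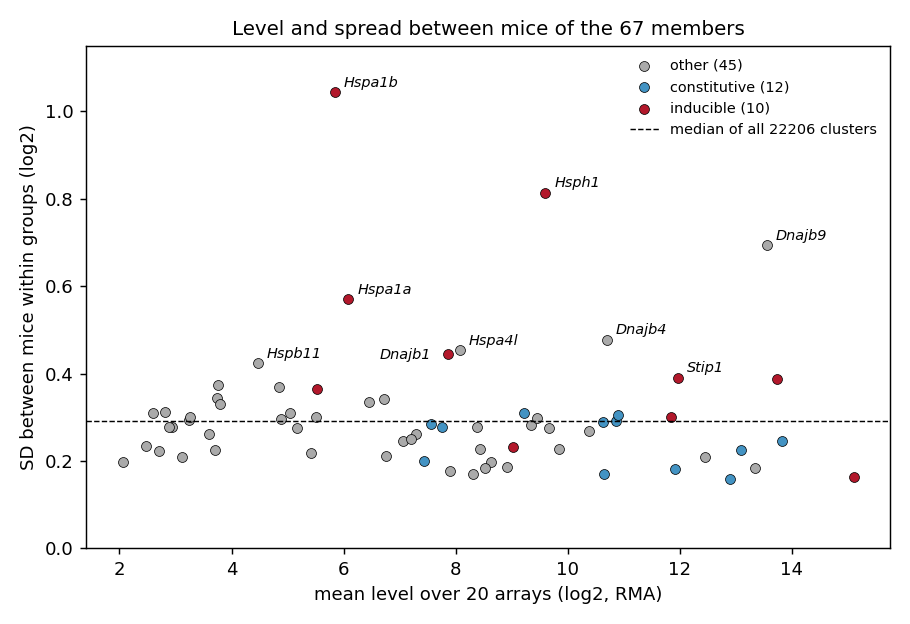
SD between mice within groups (log2) against the mean level over 20 arrays (log2, RMA) for the 67 members, coloured by list, with the median SD of all 22206 clusters, 0.29, as a dashed line. Names mark the genes with an SD over 0.39, of which Hspb11 and Dnajb4 are named for their spread alone, and Hspa1b and Hsph1 lie highest at 1.04 and 0.81.

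Some inducible genes varied together from mouse to mouse. Hsp90aa1 was set against each of the other 9 over the 20 arrays with the group means removed, a family of 9 relations chosen after the values were seen. It correlated with Hsph1 at r = 0.76 and rho = 0.61, with Stip1 at r = 0.71 and rho = 0.60, with Dnajb1 at r = 0.66 and rho = 0.59 and with Hspa1b at r = 0.65 and rho = 0.65. The permutation p-values within groups, adjusted over the 9 relations, were 0.00985, 0.00985, 0.0272 and 0.0100 for r, and 0.0436 for each rho. Without the 2 mice farthest from the median of Hsp90aa1, 10 °C animal 8 and 23 °C animal 1, r was 0.71, 0.63, 0.53 and 0.53. These 2 were picked by level before the group means were removed, and the group means still included them. Hsp90aa1 in 30 °C animals 4 and 5, which stayed in, was at 13.02 and 14.44 against a group mean of 13.72. Leaving out the mice farthest from their own group mean was not tested. The other 5 relations did not pass, with r from 0.22 for Hspe1 to 0.53 for Hspa1a (adjusted permutation p = 0.0656). The arrays shared their normalisation.

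Genes of the same pathway outside the symbol rule were read from a list of 33 co-chaperones, exchange factors, other chaperones and HSF1 targets, of which 28 were measured. In 10 °C against 23 °C offspring 0 passed limma's adjusted p, 6 were lower and 0 higher at the unadjusted threshold, against 5.91% and 5.73% of all clusters. A lower mean was found for 23 of 28, with a median of -0.16. Without 23 °C animals 1 and 2 it was 18 of 28, with a median of -0.09. Hsbp1, a small protein that binds HSF1, had means of 9.93 ± 0.16 and 10.36 ± 0.16 (-0.43 ± 0.12, adjusted p = 0.188). Bag3, an exchange factor of HSP70 and itself heat-inducible, was at 7.23 ± 0.54 and 8.11 ± 0.73 (-0.88 ± 0.40, adjusted p = 0.401), with 23 °C animals 1 and 2 at 9.12 and 8.65, and its difference was -0.36 without them. Chordc1, an HSP90 co-chaperone, differed by -0.69 ± 0.26 (0.296), or by -0.35 without them, and Cct3, a subunit of the cytosolic chaperonin, by -0.33 ± 0.12 (0.276). In 18 °C offspring none of the 28 had an unadjusted p under 0.05 against the control group, where 9.25% of all clusters had. In 30 °C offspring 1 had, Hsbp1, where 4.84% of clusters had. Hsbp1 was thus lower than in the control group in both 10 °C and 30 °C offspring.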

How the data were processed

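The authors deposited 1 log2 value per row of the array and mouse. According to the submitters' processing notes, RMA (background correction, quantile normalisation and probe summary) and the Transcriptome Analysis Console were used. Their settings and versions, and the genome build, are not given in the sources used here. Quantile normalisation hides a shift of all genes together, and RMA understates folds of dim rows. The number of arrays limits the precision.

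Of 28846 rows, 6640 control rows were left out of the tests. Gene symbols came from the platform annotation, with 1 symbol for 19572 clusters and none for 2634. All 19572 identifiers matched the RefSeq table, and 0 symbols changed.

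A limma model (version 3.58.1, R 4.3.3) with a mean for each of the 4 groups was fitted to all 20 arrays, followed by empirical Bayes moderation and two-sided tests. Benjamini-Hochberg adjustment was over all 22206 clusters within a comparison, at a threshold of 0.05. The fit was tested on simulated data. The members and lists were chosen with earlier results of these data known, so lists are described by counts and medians and are not tested. Named genes are all inducible and constitutive members, of the other members up to 4 higher and 4 lower with the smallest p per comparison with the control, the 6 with the smallest p over the 4 groups, the 3 highest and 3 lowest by mean level, and up to 4 pathway genes per comparison. The correlations used 100000 permutations within groups (scipy 1.17.1, numpy 2.4.6). Alternatives were median centring, an intensity trend, a filter on dim clusters, only the compared groups, background level as a covariate, a replicate block and leaving out arrays. Animal numbers name mice and are not stated to pair them.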

Additional observations from a re-analysis of the deposited data

Results flagged for a closer look

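Within a group of 5 mice, a single mouse stood apart from the other 4 for 7 named members, by the size of its gap relative to the group's range (Dixon's critical value 0.71). A total of 172 groups of values were examined, and chance flags about 1 in 20, which would be 8.6. Among the inducible genes this was Stip1 in 30 °C animal 5, at 12.45 against 11.62 to 11.86 in the other 30 °C mice. Of the constitutive genes it was Hspa14, a ribosome-associated HSP70, in 18 °C animal 4, at 7.19 against 7.67 to 7.86.

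The others were J proteins and dim HSPs. In 10 °C offspring, Dnajb14 was at 6.26 in animal 2 against 6.71 to 6.84, and Dnajc21, which acts in ribosome assembly, was at 8.11 in animal 8 against 8.58 to 8.73. In 23 °C animal 2, Dnajc25 was at 8.46 against 7.90 to 8.01, and Hspb9 at 2.43 against 1.91 to 2.05. Hspa1l was at 2.30 in 30 °C animal 8 against 2.63 to 2.73. The last 2 genes have mean levels under 3.90, the olfactory receptor level.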

How the results depend on the processing

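In none of the 27 alternatives did a member pass limma's adjusted p of 0.05 in any comparison. The inducible median of 18 against 23 °C offspring, -0.08, changed sign to 0.08 without 23 °C animal 1 and to 0.14 without animals 1 and 2. The smallest adjusted p over the alternatives was 0.0624, for Dnaja2 between 10 °C and 23 °C offspring without 23 °C animal 23, followed by 0.0777 for Dnajb2 without 10 °C animal 6. With the animal number as a replicate block, the inducible median was -1.20 for 10 °C, -0.67 for 18 °C and -0.82 for 30 °C against 23 °C offspring. The numbers only name mice: over 11 pairs with the same number, deviations from the group means correlated at -0.15 to 0.11, and 1 pair was over 0.1. The numbers 15, 17 and 23 each occur on 1 array only, so the block takes up those control mice entirely. In that fit the comparisons with 23 °C offspring therefore rest on 23 °C animals 1 and 2. Without both 23 °C animals 1 and 2 the inducible median of 10 °C offspring was -0.35. Leaving out 1 array at a time gave -0.84 to -0.49 for 10 °C, -0.28 to 0.08 for 18 °C and -0.54 to -0.19 for 30 °C against 23 °C offspring, with the value nearest or above 0 always without 23 °C animal 1. The constitutive median of 10 °C offspring stayed between -0.05 and 0.04. A mean over several rows of a symbol gave nothing to compare, since each member has 1 row. The comparisons among 10, 18 and 30 °C offspring with arrays left out, and the single-gene and pathway values without named mice, were added after seeing the data. Dim members, 15 of 67 under 3.90, limit what could be seen of tissue-restricted genes.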
